A study of Drosophila melanogaster with 34 samples.

Results

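The narrow CBP-only sites are stretches of *Drosophila* chromatin where the acetyltransferase CBP was found without the histone deacetylase Rpd3 or its partner CoRest-C. The nuclei were collected by a tag expressed in mushroom body (MB) neurons, but RNA of other head tissues was present in the RNA-seq preparations. The sites were selected from the deposited list of CBP binding sites by 2 criteria, a width (end minus start) under 1000 bp and no shared base with any listed CoRest-C or Rpd3 site. Of 6684 CBP sites, 3834 met both criteria. Another 657 CBP sites were free of both proteins but 1000 bp or wider, and 2193 shared at least 1 bp with a CoRest-C or Rpd3 site. The lists of the 3 proteins together held 10638 sites, of which 1237 were CoRest-C sites and 2717 were Rpd3 sites. Because width and overlap selected the sites, both are descriptions here, and so is the CBP signal from which the list was made.

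CBP, encoded by *nej* in flies, transfers acetyl groups to histones, including residues that mark active enhancers and promoters, and is brought to DNA by many transcription factors, among them the cAMP-responsive factor CREB. Rpd3, the fly homolog of mammalian HDAC1 and HDAC2, removes such groups, and CoRest proteins are scaffolds of a corepressor complex that contains it. The MB is the center of olfactory memory in the fly brain, and its intrinsic neurons, the Kenyon cells, depend on transcription for long-term memory. Sites that carry CBP and lack both other proteins are therefore places where the acetyltransferase was detected without its counterpart at the thresholds used.

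The flies had a w(CS10) background, carried FLAG-KASH, a tag of the nuclear envelope, and CsChrimson, a red light-gated cation channel, under MBp-LexA, and expressed CoRest-C::myc under the RU486-inducible driver MBsw. The paper states these transgenes for the ChIP-seq flies and does not restate them for the RNA-seq flies. By its general methods, food with RU486 or all-*trans*-retinal was given for 3 days before an experiment. Nuclei of MB neurons were collected with an anti-FLAG antibody from pools of fly heads. ChIP-seq of CoRest-C, CBP and Rpd3 was made from naïve flies and from flies right after 5 min of red light, with 3 replicates a group and 1 input DNA sample. A binding site is a peak found with overlap in 2 or more replicates of the illuminated group, which has 3. Nuclear RNA-seq covered 5 groups of 3 libraries, naïve flies and illuminated flies that rested for 0, 5, 10 or 15 min once the 5-min light had ended. The study's methods call the sequencing replicates biological and say that experiments were spread over several days, but which library came from which cross or day is not given in the sources used here. P-values therefore measure the spread between these samples, which may be partly technical. The site list has no values per replicate, so its numbers have no replicate error, and it holds no sites of naïve flies.

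The sequences below show the 2 features on which the results turn, the GA-rich letters under the CBP signal and the heat shock promoters whose RNA changed most. They are taken from the central 300 bp of 9 sites, without annotated exons, on the forward strand of the RefSeq genome of Release 6 (dm6), and capitals mark every GAGAG and its reverse complement CTCTC. This 5-letter word is the core of the sequence bound by Trl, the GAGA factor, a protein that helps to keep promoters free of nucleosomes. The first 4 were picked by name, without a rule, from the 10 sites with the highest CBP fold enrichment. The strongest of those 10, at *jbug*, is not shown. The 4 lie at chr2L:3580803-3581102 before the start of *sob* (a zinc finger gene of the odd-skipped family), at chr3L:1586483-1586693 next to a start site within *CG13917*, at chr3R:12467777-12468031 before the heat shock gene *Hsp70Ba*, and at chrX:7702616-7702915 in an intron of the forkhead gene *CHES-1-like*.
sob: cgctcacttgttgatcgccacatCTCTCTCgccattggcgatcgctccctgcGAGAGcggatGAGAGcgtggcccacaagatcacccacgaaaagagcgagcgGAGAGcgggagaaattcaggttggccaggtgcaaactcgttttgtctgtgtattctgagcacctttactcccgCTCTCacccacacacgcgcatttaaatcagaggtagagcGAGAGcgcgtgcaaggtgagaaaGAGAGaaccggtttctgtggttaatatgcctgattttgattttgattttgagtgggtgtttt
CG13917: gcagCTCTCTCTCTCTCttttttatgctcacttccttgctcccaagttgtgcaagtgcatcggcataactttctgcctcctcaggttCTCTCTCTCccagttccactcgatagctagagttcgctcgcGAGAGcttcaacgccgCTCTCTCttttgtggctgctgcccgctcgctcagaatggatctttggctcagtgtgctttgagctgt
Hsp70Ba: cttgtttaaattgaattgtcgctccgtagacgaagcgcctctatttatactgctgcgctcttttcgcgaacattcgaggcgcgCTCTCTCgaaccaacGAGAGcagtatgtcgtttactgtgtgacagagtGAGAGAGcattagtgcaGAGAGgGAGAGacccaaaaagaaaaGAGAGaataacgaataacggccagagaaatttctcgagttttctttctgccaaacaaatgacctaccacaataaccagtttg
CHES-1-like: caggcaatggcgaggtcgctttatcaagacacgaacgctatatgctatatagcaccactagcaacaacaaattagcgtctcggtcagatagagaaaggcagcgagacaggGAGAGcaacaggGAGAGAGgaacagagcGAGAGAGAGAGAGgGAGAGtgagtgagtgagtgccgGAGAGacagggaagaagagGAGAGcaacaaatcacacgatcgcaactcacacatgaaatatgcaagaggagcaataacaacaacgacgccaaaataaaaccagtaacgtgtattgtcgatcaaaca
The next 4 lie before genes whose RNA changed after light, the heat shock genes *Hsp26* (chr3L:9377428-9377661), *Hsp27* (chr3L:9383676-9383975) and *Hsp68* (chr3R:24057311-24057495) and the nuclear receptor gene *Hr38* (chr2L:20714589-20714869).
Hsp26: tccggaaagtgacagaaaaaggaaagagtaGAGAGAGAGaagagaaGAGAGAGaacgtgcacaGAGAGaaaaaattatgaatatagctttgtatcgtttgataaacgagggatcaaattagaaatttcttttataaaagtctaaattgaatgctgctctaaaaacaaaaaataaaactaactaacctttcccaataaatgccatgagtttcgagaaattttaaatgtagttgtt
Hsp27: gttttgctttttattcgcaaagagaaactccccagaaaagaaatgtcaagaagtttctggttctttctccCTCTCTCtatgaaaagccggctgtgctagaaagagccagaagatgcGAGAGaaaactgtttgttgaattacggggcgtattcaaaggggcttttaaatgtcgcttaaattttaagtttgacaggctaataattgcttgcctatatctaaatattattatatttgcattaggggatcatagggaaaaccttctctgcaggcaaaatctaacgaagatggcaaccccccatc
Hsp68: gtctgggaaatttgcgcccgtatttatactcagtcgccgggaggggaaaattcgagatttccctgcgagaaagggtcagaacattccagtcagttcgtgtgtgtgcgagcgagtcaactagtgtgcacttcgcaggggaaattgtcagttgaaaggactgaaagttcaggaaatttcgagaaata
Hr38: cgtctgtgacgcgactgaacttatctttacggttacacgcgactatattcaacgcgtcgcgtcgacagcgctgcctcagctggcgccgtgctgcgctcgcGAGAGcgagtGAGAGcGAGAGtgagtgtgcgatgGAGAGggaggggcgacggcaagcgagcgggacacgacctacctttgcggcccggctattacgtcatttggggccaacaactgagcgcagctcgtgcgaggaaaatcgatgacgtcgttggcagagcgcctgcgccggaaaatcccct
The last is the intronic one of the 5 weakest sites, at chr3L:557100-557399 in the kinase gene *Hipk*.
Hipk: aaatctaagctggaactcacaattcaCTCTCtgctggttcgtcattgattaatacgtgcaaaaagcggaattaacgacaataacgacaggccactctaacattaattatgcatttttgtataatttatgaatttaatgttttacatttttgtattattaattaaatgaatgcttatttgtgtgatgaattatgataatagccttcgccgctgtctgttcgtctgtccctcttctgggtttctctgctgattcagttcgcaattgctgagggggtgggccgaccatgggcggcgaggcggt
The stretches of *CG13917* and *CHES-1-like* held 11 overlapping matches each, those of *sob* and *Hsp70Ba* held 8 each, *Hsp26* held 6, *Hr38* 4, *Hsp27* 3 and *Hipk* 1. The *Hsp68* stretch held none. Over all narrow sites the median was 2 matches in the central 300 bp.

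The narrow CBP-only sites were 251 to 999 bp wide, with a median of 480 bp (quartiles 364 and 639 bp), and together covered 1982 kb. Fold enrichment over input, as given by the authors' peak caller, ran from 2.20 to 63.2 with a median of 6.04 (quartiles 4.25 and 10.3). It was under 3 at 152 sites and over 20 at 302. The wider CBP-only sites had a median fold of 17.7 and the CBP sites shared with CoRest-C or Rpd3 a median of 8.41. The widest members of the group, both 999 bp, lay in *wrd* (fold 12.96) and at *Syx4* and *kirre* (fold 14.04), and the sites just past the width limit were 1000 bp wide with folds of 3.51 and 13.5. Sites were found on every chromosome arm, with 27.6 sites per Mb on 2L, 29.2 on 2R, 28.5 on 3L, 28.6 on 3R, 30.1 on X and 16.3 on the small chromosome 4.

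The 10 sites with the highest fold lay at *jbug* (a filamin-type actin-binding protein, fold 63.2), *sob* (60.9), *CG13917* (54.0), *Hsp70Ba* (50.7), *CHES-1-like* (49.8), the non-coding RNA gene *lncRNA:CR45609* (48.5), *sog* (an antagonist of BMP signaling, 48.0), *Pvf1* (a ligand of the PDGF/VEGF receptor, 47.4), *lncRNA:CR44938* (47.2) and *a* (arc, 47.0). All but the *CHES-1-like* site had their midpoint within 1 kb of an annotated start site, and that of *CHES-1-like* was 2197 bp from the nearest one. The 5 weakest sites, with folds of 2.20 to 2.25, lay at *sina*, in a *Hipk* intron, and at *CG14966*, *SiaT* and *Pdha*.

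The narrow CBP-only sites were less confined to start sites than the CBP sites that carried CoRest-C or Rpd3. The midpoint lay within 1 kb of an annotated start site for 2180 of them (56.9%, Wilson 95% interval 55.3 to 58.4%), against 71.8% of the wider CBP-only sites (68.3 to 75.1%) and 89.8% of the CBP sites with either other protein (88.5 to 91.0%). These intervals cover counting error only, and the classes were not tested against each other, since neighbouring sites are not independent. Another 1166 narrow sites (30.4%) lay in introns away from start sites and 351 (9.15%) between genes, whereas 59 lay in 3′ UTRs, 36 in coding exons, 26 in 5′ UTRs and 16 in non-coding exons. Introns held 22.2% of the wider sites and 6.79% of the sites with another protein. The share near start sites was 42.8% when each gene was given 1 start site in place of all its transcripts.

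Near start sites, the narrow CBP-only sites sat mostly upstream. Of the 2180 sites, 1382 (63.4%) had their midpoint before the start site, compared with 55.1% of the wider CBP-only sites and 36.3% of the CBP sites with CoRest-C or Rpd3 near start sites. The median distance to the nearest start site was 557 bp over all narrow sites. Of the narrow sites, 1110 (29.0%) had another CBP site within 1 kb and 78.6% had one within 10 kb. These shares were 32.6% and 83.7% for the wider CBP-only sites and 28.5% and 81.4% for the CBP sites with CoRest-C or Rpd3. The nearest CoRest-C or Rpd3 site was a median of 10500 bp from a narrow site, but within 1 kb for 321 narrow sites (8.37%).

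**Figure D1:**
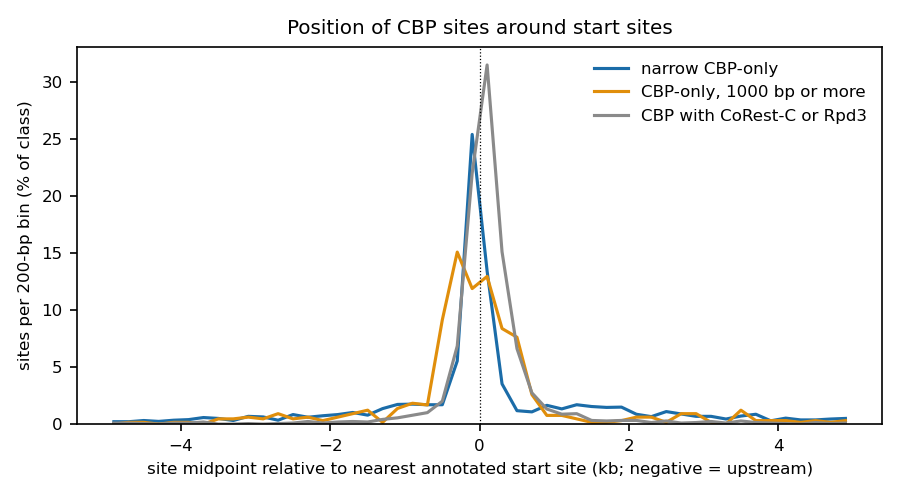
Position of CBP sites around annotated start sites. The x axis is the distance of a site's midpoint from the nearest start site in kb, negative upstream, and the y axis is the percent of each class per 200-bp bin. The narrow CBP-only line (blue) peaks just before the start site and the line of CBP sites with CoRest-C or Rpd3 (grey) just after it, and 63.4% and 36.3% of their midpoints near start sites are upstream.

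GAGAG, counted on both strands, was the most widespread of the 14 sequences searched in the central 300 bp. It was present in 2861 narrow CBP-only sites (74.6%, 73.2 to 76.0%), against 32.7% of 23584 windows of the same length on start sites and 30.2% of 445433 windows that tile the genome. It was in 76.2% of the sites away from start sites and 73.4% of those near them, and 1487 sites (38.8%) held 3 or more overlapping matches, compared with 3.08% of the genome windows. The median GC content of the central 300 bp was 47.3%, against 41.7% for start site windows and 42.0% for genome windows. A match of letters is a description of the sequence and was not tested as a binding site.

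The letters sat under the CBP summit and followed the strength of the CBP signal. Around the summits of the narrow sites there were 1.02 matches per site in the 50 bp before and 0.926 in the 50 bp after, against 0.104 at 925 bp before the summit. Across the quartiles of fold enrichment, the share of narrow sites with GAGAG in 300 bp on the summit went from 52.3% to 72.7%, 87.6% and 97.4%. The shares in the window on the midpoint were 51.4%, 70.5%, 83.0% and 93.6%.

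How the narrow sites compared with the wider ones depended on where the window was placed. On the midpoint, GAGAG was in 74.6% of narrow CBP-only sites, 65.3% of wider CBP-only sites and 54.7% of CBP sites with CoRest-C or Rpd3. On the summit, these shares were 77.5% (76.1 to 78.8%), 93.3% (91.1 to 94.97%) and 67.1% (65.1 to 69.0%). The summit lay a median of 34 bp from the midpoint in narrow sites and 255 bp in wider ones. GC content moved in the same way, with medians on the summit of 47.3%, 47.3% and 47.7%, where the midpoint windows had given 47.3%, 42.3% and 46.3%. At matched fold the narrow sites and the sites with another protein kept their order, 52.3% against 32.6% in the lowest quartile range and 97.4% against 93.8% in the highest. The wider sites were above the narrow ones in the 2 upper ranges (89.4% and 98.8%) and below them in the range from 4.25 to 6.04 (57.6% of 59 sites).

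**Figure D2:**
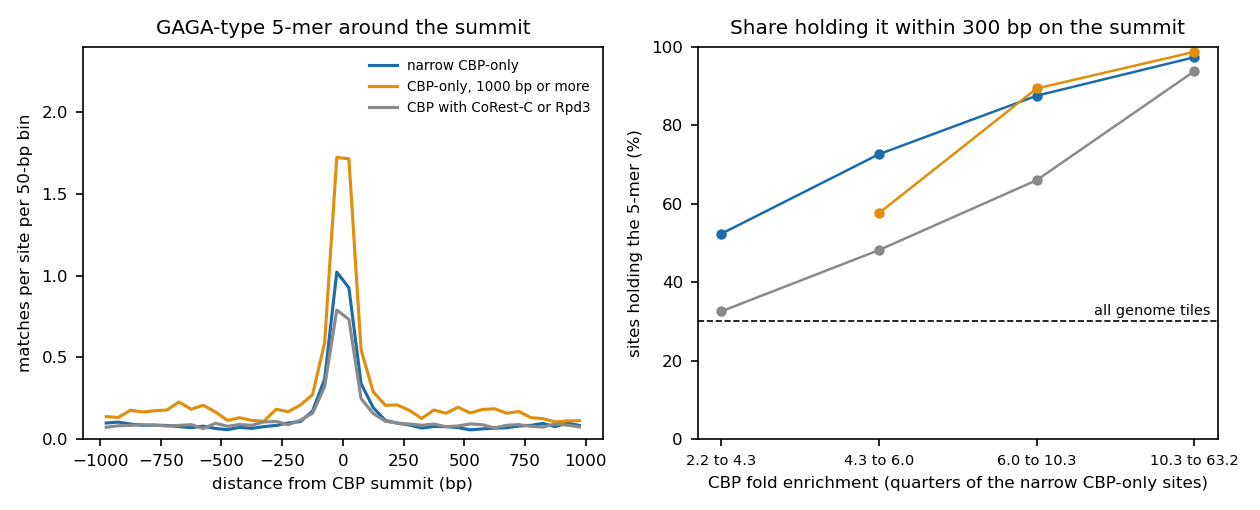
GAGAG and its reverse complement at CBP sites. Left, matches per site in 50-bp bins against the distance from the CBP summit in bp. Right, percent of sites with a match in 300 bp on the summit by fold enrichment, in the quartile ranges of the narrow CBP-only sites (points of under 20 sites left out), with all genome windows as a dashed line at 30.2%. Matches are packed within about 100 bp of the summit in all 3 classes, and the narrow CBP-only sites go from 52.3% to 97.4%.

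Other sequences were less frequent, and several stood nearer to the level of the genome. The repeat CACACACA was in 15.6% of narrow CBP-only sites, 21.2% of sites with CoRest-C or Rpd3, and 5.94% of genome windows. CAGCTG, an E-box of bHLH factors, was in 18.8% of narrow sites and 12.3% of genome windows. The full CREB sequence TGACGTCA was in 58 narrow sites (1.51%, 1.17 to 1.95%), against 14 of the sites with another protein (0.638%) and 0.409% of genome windows, and its shorter form TGACG, which the full one contains, in 29.0% against 24.6% of genome windows. TGANTCA, the sequence of AP-1, was in 6.39% against 5.86%, CACGTG in 4.83% against 3.52% and CAGGTAG in 1.72% against 1.64%. TATAAA (21.9%), TAATTA (11.0%), the Mef2 consensus (6.10%) and AAAGGTCA (0.548%) were less frequent than in genome windows (30.2%, 17.9%, 9.50% and 1.02%). TATCGATA and GGTCACACT, core promoter sequences of broadly active genes, were in 0.704% and 0.496% of narrow sites and in 0.848% and 0.305% of genome windows. They were in 1.06% and 0.642% of the narrow sites near start sites. The shares were 2.96% and 2.83% for sites with another protein and 6.04% and 4.09% for start site windows.

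A narrow site was assigned to each gene whose body, extended by 1 kb before the start, it touched. By this rule 3530 of the 3834 sites lay in or at 3079 genes, 17.4% of the 17683 annotated, and 304 lay in none. Of these genes, 1939 had no other site of the 3 proteins and 1140 had at least 1. *Eip75B*, which encodes an ecdysone-induced nuclear receptor, had 16 narrow sites over its 113744 bp. The next number, 11, was shared by 7 genes, among them *ftz-f1*, also a nuclear receptor gene, *CG32264*, the corepressor gene *Smr* and *sima*, which encodes a hypoxia-inducible factor. *Glut4EF* and *CG46467* are among the 7 and overlap, so that their 11 sites are the same.

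Many of the listed genes had a narrow site, which 17.4% of all annotated and 19.4% of protein-coding genes had. Such a site was present at 18 of 25 genes of MB neuron identity (72.0%), 13 of 16 activity-regulated transcription factor genes (81.2%), 32 of 44 developmental regulators (72.7%), 17 of 25 ion channel genes (68.0%), 13 of 20 genes of the cAMP and memory pathway (65.0%), 19 of 32 receptor genes (59.4%) and 13 of 24 synaptic genes (54.2%). It was at 8 of 18 heat shock genes (44.4%), 10 of 31 chromatin genes (32.3%) and 3 of 11 glial marker genes (27.3%). Of the photoreceptor and fat body marker genes, 3 of 15 and 1 of 10 had it. Listed genes whose symbol was not found in the annotation were left out of these shares. Among them was *h*, of the 17 activity-regulated genes listed. Neuronal and regulatory genes are long, and genes with a narrow site had a median length of 7578 bp among the tested ones against 2452 bp for all tested genes. The lists were also chosen with earlier results of these data known. The part of length and of that choice in these shares was not tested.

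Among the developmental regulators, the narrow sites of highest fold lay at the Hox gene *Ubx* (43.7), the Runx gene *lz* (36.2) and the paired homeobox genes *en* (32.0) and *inv* (29.8). RNA of *Ubx*, *en* and *inv* was low, with means of 1.16, 4.73 and 6.59 CPM (normalized counts scaled to a common library size) in naïve flies, whereas *lz* was at 168 CPM. In the cAMP and memory pathway they lay at *sgg* (GSK3, 26.7), *dnc* (the cAMP phosphodiesterase dunce, 25.3), *Cam* (calmodulin, 22.5) and *Fas2* (fasciclin 2, an adhesion molecule of MB axons, 17.7). Among receptors they lay at *Rdl* (a GABA receptor, 19.8), *DopEcR* (17.2), *Octbeta2R* (17.1) and *Nmdar1* (14.9), among channels at *para* (the voltage-gated sodium channel, 18.3), *Irk1* (13.9), *SK* (10.6) and *Shab* (9.73), and among synaptic genes at *Gad1* (20.01, glutamate decarboxylase), *Syt1* (13.9), *brp* (Bruchpilot, 13.2) and *unc-13* (10.8). Chromatin genes with narrow sites included *Mi-2* (16.3), *psq* (14.1), *chm* (12.0) and *HDAC4* (8.74).

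The nuclear RNA-seq libraries held 10392334 to 18809246 counts on genes, and 11670 genes were tested. Replicates varied with a biological coefficient of variation of 13.4%, and naïve replicate 2 stood apart from the other naïve libraries (chi-square per degree of freedom of 32.3 and 28.5 against 6.17 between replicates 1 and 3). The 10 marker genes of MB neurons were all tested, with summed levels of 2912 to 3190 CPM in naïve flies, beside 1933 to 2337 CPM for glia (6 of 6 markers tested), 18060 to 22755 CPM for photoreceptors (9 of 9) and 12050 to 12400 CPM for fat body (4 of 6), so that RNA of other head tissues was present in the preparation. Photoreceptor and fat body sums were 28149 to 33421 and 18147 to 19604 CPM at 15 min of rest, where all 3 libraries were above the naïve range, and 18852 to 19796 and 13290 to 13885 CPM at 10 min. MB markers stayed between 2740 and 3110 CPM at 15 min. At 10 min, 5 of the 9 photoreceptor markers were called lower than in naïve flies and 0 higher, by the edgeR test given below. Of all genes tested 13.9% were lower. The other markers had 2 higher and 2 lower for MB neurons, 1 and 2 for glia, and 1 and 1 for fat body. The part of other tissues in the 10-min calls was not tested. Nuclei for ChIP-seq were collected in the same way, and the part of other tissues in the site lists was not tested either. In bulk nuclei, fewer cells of a type and less RNA per cell cannot be told apart.

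Genes with narrow CBP-only sites were more often higher after light than tested genes at large, at each of the 4 times, and the shares themselves were highest at 10 min of rest. Genes were called against naïve flies by the quasi-likelihood test of edgeR, with a Benjamini-Hochberg threshold of 0.05 over all 11670 genes. Of the 3079 genes with a narrow site, 2885 had a count and 2669 were tested, and of these 711 (26.6%) were higher and 247 (9.25%) lower at 10 min, where 14.5% of all genes tested were higher and 13.9% lower. Right after light 243 (9.10%) were higher and 59 (2.21%) lower, against 4.88% and 3.45% of all. At 5 min 433 (16.2%) were higher and 111 (4.16%) lower, against 8.75% and 6.02%. At 15 min 221 (8.28%) were higher and 100 (3.75%) lower, against 5.41% and 4.24%. The 4 comparisons share the naïve libraries and are not independent.

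The shift was small per gene, with a median log2 fold change of 0.09 at 10 min for genes with a narrow site against -0.05 for all genes tested. It depended on scaling. With library size alone the median over genes with a narrow site turned negative, at -0.03, and that over all genes moved to -0.17. Then 525 genes with a narrow site were called higher and 481 lower, so that 52.2% of their calls were higher in place of 74.2%, where for all genes the share was 30.3% in place of 51.0%. With upper quartile scaling 624 were higher and 347 lower. At 15 min the balance of calls turned with library size alone, from 221 higher and 100 lower to 143 higher and 200 lower (41.7% of calls higher in place of 68.8%). Without naïve replicate 2, 665 were higher and 238 lower.

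The share higher at 10 min was larger among genes that also had another site, a difference that was not itself tested. Of 1618 tested genes with narrow sites and no other site, 295 (18.2%) were higher and 195 (12.1%) lower, near the 14.5% and 13.9% of all genes. Of 1051 genes with narrow and other sites, 416 (39.6%) were higher and 52 (4.95%) lower. Genes with other sites only gave 13.4% and 14.5%, and genes without any site 8.76% and 16.0%. The share higher also went with the number of narrow sites, from 22.9% of genes with 1 to 32.8% with 2, 39.5% with 3 to 5 and 53.2% of 47 genes with 6 or more. Gene length went with it, at medians of 4976, 15027, 29409 and 64997 bp.

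Level and length went with the calls in all genes, and the values within 4 bins of equal size are given here beside them. In the bin of tested genes with the highest mean level, 37.6% of genes with a narrow site and 29.6% of all genes were higher at 10 min, and in the lowest bin 5.40% and 4.86%. Genes with narrow sites only were at 25.8% higher and 16.6% lower in the highest bin, where all genes were at 29.6% and 13.2%. In the bin of the longest genes (5858 bp or more) 33.2% of genes with a narrow site and 27.6% of all genes were higher. In the shortest (1324 bp or less) 13.96% and 7.01% were. Genes with narrow sites only were at 20.5% in the longest bin, below the 27.6% of all genes, and at 13.4% in the shortest, above the 7.01%. All genes include those with narrow and other sites, at 44.1% in the longest bin. Genes without any site were at 14.05% in the longest and 7.16% in the shortest. In every bin of level and of length, the share higher was larger for genes with narrow sites only than for genes without any site. The gap was small in the lowest level bin, at 5.97% against 5.08%. The part of level and length in the difference between classes was not otherwise tested. The median level in naïve flies, in CPM per kb of exon, was 16.6 for genes with a narrow site, 14.1 for those with narrow sites only, 6.30 for genes without a site and 12.0 for all.

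**Figure D3:**
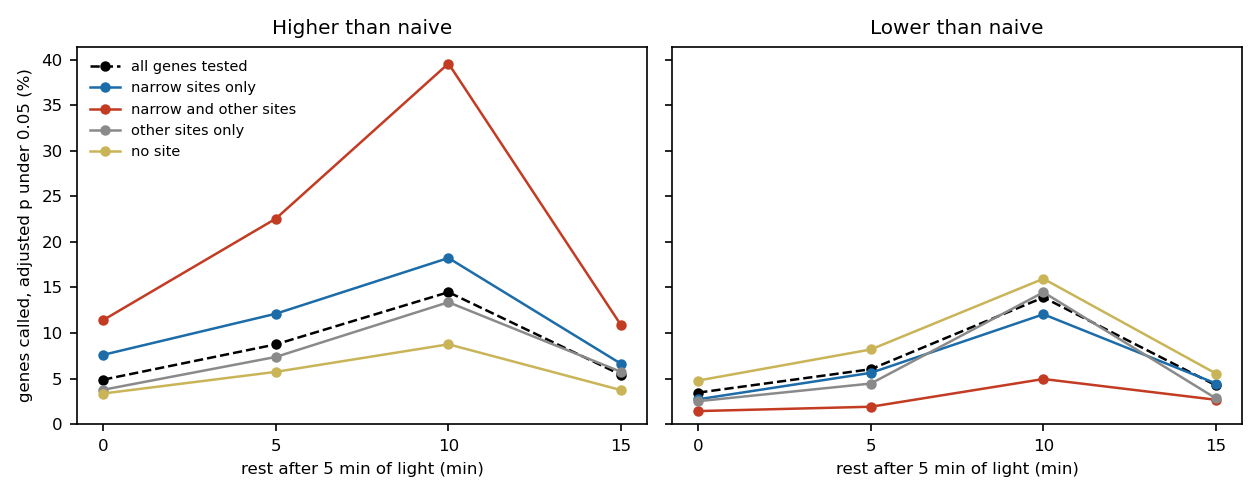
Genes called against naïve flies by class of binding site. The x axis is the rest after 5 min of light in min, and the y axis is the percent of tested genes in each class with an adjusted p under 0.05 (edgeR), higher on the left and lower on the right. At 10 min the class with narrow and other sites (red) reaches 39.6% higher, the class with narrow sites only (blue) 18.2%, and all genes tested (dashed) 14.5%.

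From 10 to 15 min of rest, genes with a narrow site fell more often than they rose. In the direct comparison of these groups 515 (19.3%) were lower and 184 (6.89%) higher at 15 min, where 10.2% of all genes were lower and 6.71% higher. Photoreceptor and fat body marker sums were higher at 15 min, as given above, and their part in this comparison was not tested.

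Heat shock genes were prominent among the largest changes. By the rule used here, the 5 genes with the largest log2 fold change at 10 min among called genes with narrow sites and no other site were the non-coding RNA *alphagamma-element:CR32865*, *Hsp27*, *Hsp68*, *Hsp26* and the non-coding RNA *CR42765*. *Hsp26* and *Hsp27* encode small chaperones and *Hsp68* a chaperone of the Hsp70 family. The alphagamma element is transcribed from a heat shock locus that also holds Hsp70 genes, and its repeated copies make its count uncertain.

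*Hsp26* was at 98.4, 103 and 113 CPM in naïve flies, 738, 712 and 650 right after light, 3513, 2970 and 2893 at 5 min, 2674, 2765 and 2771 at 10 min, and 2319, 2202 and 1929 at 15 min. Every library after light was above every naïve one. The naming rule required this at 10 min, but not at the other times. The log2 fold change was 2.74 right after light (SE 0.10, adjusted p = 3.54e-18), 4.90 at 5 min and 4.70 at 10 min (SE 0.10, adjusted p = 4.28e-24). Its site, chr3L:9377093-9377932 with a fold of 20.5, has its midpoint 85 bp before the start site.

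*Hsp27* was at 30.6, 33.3 and 32.7 CPM in naïve flies, 162, 161 and 136 right after light, 1191, 1120 and 1282 at 5 min, 1153, 1163 and 1056 at 10 min and 897, 836 and 756 at 15 min. The log2 fold change at 10 min was 5.13 (SE 0.11, adjusted p = 1.56e-24). The site before *Hsp27*, chr3L:9383381-9384272, was weaker, with a fold of 7.63.

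*Hsp68* was at 72.8, 59.3 and 60.0 CPM in naïve flies, 246, 250 and 192 right after light, 1820, 1751 and 1761 at 5 min, 1999, 1992 and 1942 at 10 min and 1947, 2038 and 1866 at 15 min. It had a log2 fold change of 4.95 at 10 min (SE 0.11, adjusted p = 4.46e-24), and its site, chr3R:24057139-24057553, had a fold of 7.23 and no GAGAG in the central 300 bp. The site of *Hsp26* was stronger and held 6 matches in its central 300 bp. How site strength or matches go with the size of the RNA change was not tested. *Hsp67Bc*, in the same cluster as *Hsp26* and *Hsp27*, was at 13.8, 12.3 and 9.99 CPM in naïve flies and 80.0, 90.1 and 92.8 at 10 min, with a log2 fold change of 2.85 (SE 0.12, adjusted p = 4.58e-17). Its site, with a fold of 31.3, also lies at *Hsp22*, which was not tested.

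*alphagamma-element:CR32865* was at 4.78, 6.499 and 4.12 CPM in naïve flies and at 5.46, 5.53 and 4.03 right after light, and reached 212, 165 and 170 at 5 min and 320, 321 and 282 at 10 min. It did not pass the test right after light (log2 fold change -0.05, SE 0.17, adjusted p = 0.913), when *Hsp26*, *Hsp27* and *Hsp68* were already higher. *CR42765*, a short transcript inside the gene *osy* on the opposite strand, went from 1.099, 2.17 and 2.54 CPM to 17.6, 20.4 and 20.9 at 10 min (log2 fold change 3.37, SE 0.25, adjusted p = 1.65e-11). The strand setting of the counts is not given in the sources used here, so reads of *osy* may be counted there. *Hsp70Ba*, whose site had the fourth highest fold, was at 0.824, 0.203 and 0.159 CPM in naïve flies and 14.2, 12.1 and 16.6 at 10 min, but it has near-identical copies and its count is uncertain. *Hsp70Ba* also had a CoRest-C site.

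All 7 tested heat shock genes with a narrow site were higher at 10 min and at 15 min. At 10 min the median of their log2 fold changes was 4.70, against -0.05 for all genes. They include *Hsc70-3*, the chaperone of the endoplasmic reticulum (log2 fold change 0.59), and *Hsf*, the heat shock transcription factor (0.32), both of which also had an Rpd3 site. Right after light 4 of the 7 were higher and *Hsc70-3* was lower (-0.33, SE 0.09, adjusted p = 0.0192). The sites themselves were called in flies taken right after light.

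Most activity-regulated transcription factors with a narrow site were higher at 10 min, by smaller steps. Of 13 such genes tested, 9 passed the test, and the median log2 fold change was 0.41, where 14.5% of all genes were higher. This list and the others were chosen with earlier results of these data known. The part of that choice in their RNA counts was not tested. Right after light 3 were higher, at 5 min 4 and at 15 min 3. Each of the 9 genes higher at 10 min also had another site of the 3 proteins. For *CrebA* and *Atf3* it was a wider CBP-only site. *crc*, *Eip74EF*, *Eip75B*, *kay*, *sr*, *luna* and *grh* had at least 1 CoRest-C or Rpd3 site. *Eip74EF*, an ecdysone-induced ETS factor with 8 narrow sites, was at 47.7, 48.0 and 47.2 CPM in naïve flies and 74.2, 86.6 and 75.2 at 10 min, with no overlap, and the log2 fold change was 0.72 (SE 0.11, adjusted p = 1.94e-05). *grh*, which encodes grainyhead, went from 152, 139 and 154 to 250, 259 and 223 CPM at 10 min (log2 fold change 0.72, SE 0.10, adjusted p = 1.33e-06) and was back at 141, 123 and 136 at 15 min.

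*Hr38* and *sr*, fly counterparts of the NR4A and EGR immediate early genes, had another course. *Hr38* was at 10.9, 7.11 and 9.83 CPM in naïve flies, at 12.6, 14.4 and 8.59 at 10 min and at 30.4, 35.2 and 41.6 at 15 min. The 10-min libraries overlapped the naïve ones (log2 fold change 0.35, adjusted p = 0.176), and the 15-min libraries were above all others (1.95, SE 0.19, adjusted p = 6.94e-09). Photoreceptor and fat body marker sums were higher at 15 min too, as given above, and their part in this rise was not tested. *Hr38* had 3 narrow sites and no other site, the strongest with a fold of 34.3 at 132 bp before its start. *sr* went from 11.5, 10.5 and 12.7 CPM to 19.4, 18.0 and 16.4 at 10 min and 34.6, 31.6 and 32.1 at 15 min, with log2 fold changes of 0.64 (SE 0.15, adjusted p = 0.00225) and 1.505 (SE 0.15, adjusted p = 1.73e-08).

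The other genes of this list that passed the test at 10 min were *kay*, which encodes Fos (log2 fold change 0.58, SE 0.11), *crc*, the fly ATF4 (0.43, SE 0.08), *Atf3* (0.42, SE 0.11), *CrebA* (0.41, SE 0.12), *luna* (0.38, SE 0.12) and *Eip75B* (0.29, SE 0.11). *Eip75B*, with the highest number of narrow sites, was at the edge of the threshold (adjusted p = 0.0489) and missed it in 8 of 11 alternatives, and *luna* missed it in 5 and *CrebA* in 3. *Mef2* (0.00, adjusted p = 0.982), *CrebB* (0.19, adjusted p = 0.154) and *l(3)neo38* (-0.08, adjusted p = 0.552) did not pass the test, all with an SE of 0.09 to 0.10.

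Of 17 tested genes of MB neuron identity with a narrow site, 6 were higher and 2 lower at 10 min, with a median log2 fold change of 0.00, where 14.5% of all genes were higher and 13.9% lower. The 2 lower genes are no more than the share of all genes gives. At 5 min 4 were higher and 2 lower, where the shares of all genes were 8.75% and 6.02%. *toy*, a Pax6 gene, had a site with a fold of 19.0 at 97 bp before its start and no other site, and went from 197, 150 and 224 CPM to 260, 271 and 264 (log2 fold change 0.48, SE 0.10, adjusted p = 0.000875). Its counterpart *ey*, with 2 narrow sites, went from 313, 263 and 324 to 388, 404 and 365 CPM (0.36, SE 0.10, adjusted p = 0.01), a call that was lost in 2 of 11 alternatives. At 15 min *toy* was at 198 to 226 and *ey* at 272 to 365 CPM, overlapping the naïve libraries.

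*Eip93F*, a regulator of late neuronal fate with 5 narrow sites, was at 1599, 1661 and 1515 CPM in naïve flies and 3025, 3012 and 2483 at 10 min (log2 fold change 0.84, SE 0.11, adjusted p = 1.57e-06). *EcR*, the ecdysone receptor (0.50, SE 0.12), *Syp*, which encodes an RNA-binding protein (0.48, SE 0.10), and *ftz-f1* (0.31, SE 0.10) were higher too. The call of *ftz-f1* was lost in 5 of 11 alternatives. *Eip93F*, *EcR*, *Syp* and *ftz-f1* each also had an Rpd3 site. The dopamine receptor gene *Dop1R2* went from 148, 104 and 123 to 104, 102 and 91.3 CPM (-0.34, SE 0.12, adjusted p = 0.0339, lost in 6 of 11 alternatives) and the adhesion gene *dpr12* from 275, 239 and 267 to 219, 216 and 202 CPM (-0.29, SE 0.09, adjusted p = 0.0149, lost in 2). *dnc*, *Fas2*, *Dop1R1*, *trio*, *chinmo*, *mub*, *ab* and *mamo* did not pass the test at 10 min, with log2 fold changes from -0.20 (*Dop1R1*) to 0.26 (*mamo*) and SE of 0.08 to 0.13.

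The 5 genes that fell most by the same rule were *CG8147* (log2 fold change -2.21, SE 0.25), *GstD2* (-1.47, SE 0.22), *CG13148* (-1.27, SE 0.28), *erm* (-1.18, SE 0.22) and *CG32105* (-1.11, SE 0.30). *CG8147* was at 18.6, 20.04 and 21.2 CPM in naïve flies, 6.93, 10.1 and 9.68 right after light, and 6.06, 3.18 and 3.61 at 10 min. Its site lies 142 bp before the start of a neighbour, *CG16779*, and that of *CG32105* lies 229 bp before the start of *Lmx1a*. *GstD2*, a glutathione S-transferase, went from 24.8, 37.2 and 26.6 to 9.31, 11.1 and 11.5 CPM, though its paralogs may share reads, and its site is nearest the start of *lncRNA:CR46015*, 245 bp away. *erm*, a zinc finger factor of neural progenitors and of some neurons, went from 18.4, 11.9 and 14.4 to 6.95, 7.53 and 5.36 CPM, and its site lies 333 bp before its start.

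**Figure D4:**
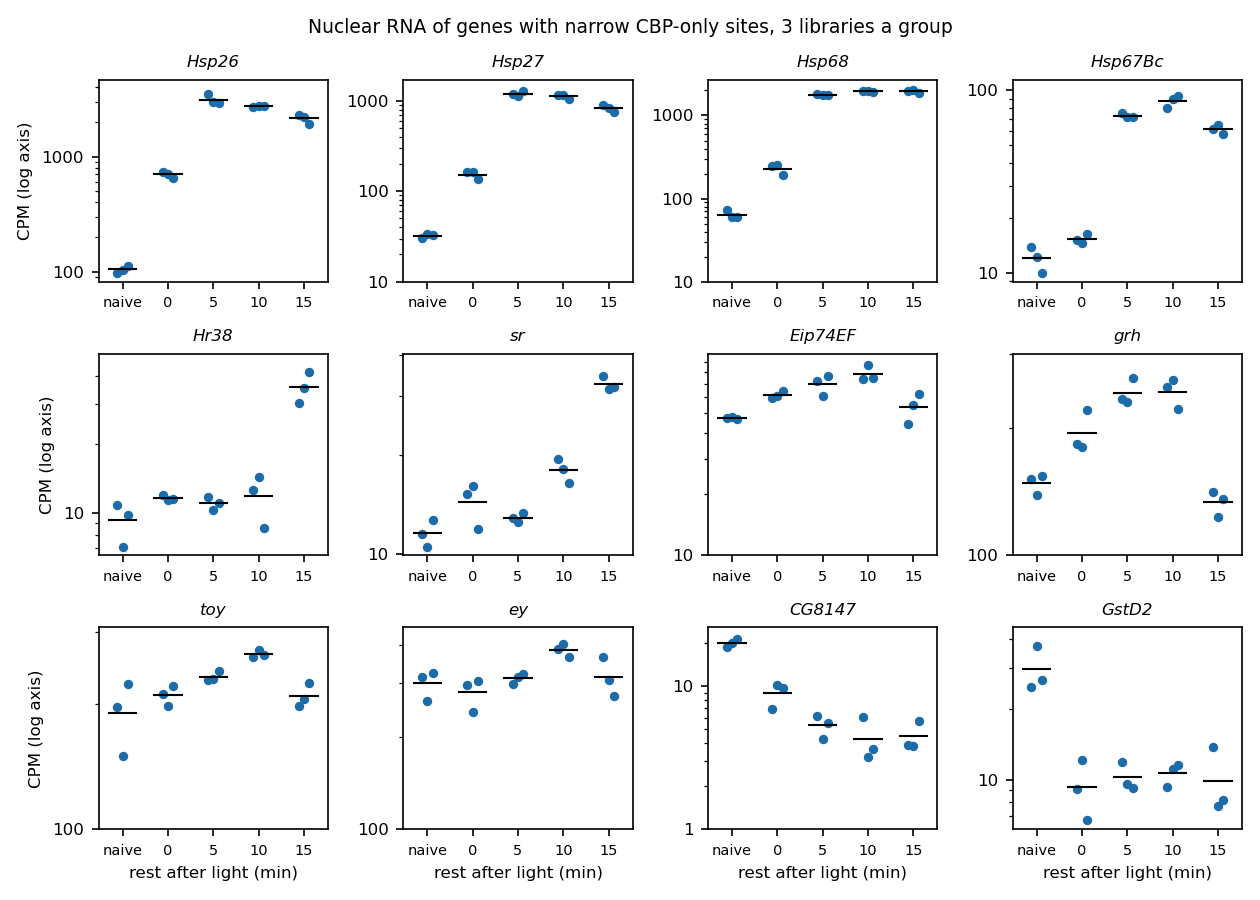
Nuclear RNA of 12 genes with narrow CBP-only sites. *sr*, *Eip74EF* and *grh* also had CoRest-C binding. Each point is 1 library, with 3 libraries in each group, the horizontal bar is their mean, the y axis is normalized CPM on a log axis, and the x axis gives naïve flies and the rest after 5 min of light. *Hsp26*, *Hsp27*, *Hsp68* and *Hsp67Bc* stay high from 5 min on, *Hr38* and *sr* are highest at 15 min, and *CG8147* and *GstD2* are below naïve at every time.

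Of the genes given here at the strongest sites, those called at 10 min were higher, except *CG13917*. *Hsp70Ba*, given above, was higher too, and *lncRNA:CR45609* and *lncRNA:CR44938* are not given. At 10 min *jbug* went from 331, 249 and 349 to 505, 497 and 485 CPM (log2 fold change 0.68, SE 0.09, adjusted p = 2.71e-06), and *Pvf1* (0.57, SE 0.11, adjusted p = 0.000364) and *sog* (0.51, SE 0.12, adjusted p = 0.00191) were higher. *CG13917* was lower (-0.26, SE 0.09, adjusted p = 0.0353). *sob* (0.50, SE 0.26, adjusted p = 0.158), *CHES-1-like* (0.09, SE 0.10, adjusted p = 0.532) and *a* (0.06, SE 0.11, adjusted p = 0.752) did not pass the test, and the *sob* libraries overlapped, at 4.60 to 7.72 CPM in naïve flies and 6.72 to 11.2 at 10 min.

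Among the other lists, developmental regulators with a narrow site were higher for 10 and lower for 2 of 27 tested genes at 10 min, with a median log2 fold change of 0.41 against -0.05 for all genes, of which 14.5% were higher and 13.9% lower. *lz* (0.56, SE 0.13) and *dpp* (0.60) were among those higher, and *pros* (-0.33) and *scrt* (-0.29) were lower. The remaining lists had few calls, to be set against the same shares of all genes, with 1 higher and 1 lower of 13 cAMP and memory genes (*for* and *Pka-R2*), 2 and 3 of 19 receptor genes, 1 (*unc-13*) and 2 (*Gad1* and *Sytalpha*) of 11 synaptic genes, and 3 and 1 (*Pc*) of 9 chromatin genes. Of 15 channel genes 1 was higher (*Irk1*, 0.55, SE 0.13). Of the marker genes of other cell types with a narrow site, 2 of 3 glial genes (*e* and *Tret1-1*) and 1 of 3 photoreceptor genes (*gl*) were higher, and the photoreceptor gene *Rh4* and the fat body gene *Obp99b* were lower.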

How the data were processed

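ChIP-seq of CoRest-C, CBP and Rpd3 and nuclear RNA-seq were made from MB nuclei of pooled flies. The authors used trimmomatic for trimming and STAR for alignment to dm6, discarded alignments of low mapping quality or not primary, called peaks with MACS and deposited, for each protein, peaks found in more than 1 illuminated replicate, with a position, a fold enrichment and a −log10 p-value. The peaks therefore carry no replicate error. For RNA the authors deposited HTSeq counts of reads on exons, not normalized. The strand setting, the sequencing batches and the tool versions are not given in the sources used here. A deposited DESeq2 table of p-values and log2 fold changes holds the authors' own comparisons and was not used.

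Repeated rows were dropped (234 of CoRest-C and 1094 of Rpd3). Site positions were compared with the Ensembl annotation of the same assembly (17683 genes and 35497 transcripts, transposable elements left out), and sequence was read from the RefSeq genome. Motif shares were counted on both strands of 300 bp windows, with Wilson intervals at 95%, which cover counting error only.

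RNA counts were tested with edgeR 4.0.16 in R 4.3.3 (limma 3.58.1) by 1 quasi-likelihood fit over 15 libraries and 5 groups, with TMM scaling, the filter filterByExpr, a prior count of 2 and Benjamini-Hochberg adjustment over 11670 genes. The file held 17559 genes, 15634 with a count. CPM are TMM-normalized. Of the tested genes, 211 had no position in the annotation and entered no site class. Adjusted p-values in the text are from this fit. Alternatives were DESeq2 1.42.0, other scalings, no filter, only the 6 libraries compared, a replicate block, other widths and windows, and leaving out libraries. The alternatives for the comparison of 15 with 10 min, the windows on the summit, start sites by summit and transposable elements as genes were added after seeing the data. Site counts and figures were made in Python 3.11 (matplotlib 3.10.9, scipy 1.17.1, pandas 2.3.3, numpy 2.4.6), and the count of overlaps and the fit were tested on simulated data.

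The sites, gene lists and motifs were chosen with earlier results of these data known. Named sites are the 10 highest and 5 lowest by fold, those next to the width limit and the genes with the most sites. Named RNA genes are, among genes with narrow sites and no other, the 5 highest and 5 lowest log2 fold changes at 10 min that were called, did not overlap and had a mean log2 CPM of at least 1, and the MB identity and activity-regulated genes with a narrow site. Other lists are given as counts with up to 4 examples of highest fold. Further genes were named after their values were seen, where a count was small or a site was of highest fold.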

Additional observations from a re-analysis of the deposited data

Results flagged for a closer look

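Among the genes that the naming rule picked for RNA, 15 differed in nuclear RNA level between 10 and 15 min of rest, by edgeR's test of this difference itself. Other genes of the text that lie outside that rule differed too, among them *dpp* (-0.80, adjusted p = 9.37e-07), *lz* (-0.78, adjusted p = 0.000106), *Hsp67Bc* (-0.52, adjusted p = 0.000975) and *pros* (0.39, adjusted p = 0.0043). All values here and those that follow are log2 fold changes of 15 against 10 min. Higher at 15 min were *Hr38* (1.60, adjusted p = 1.9e-07), *CG13148* (0.998, adjusted p = 0.0131), *sr* (0.87, adjusted p = 7.85e-05), *erm* (0.77, adjusted p = 0.0168), *Dop1R2* (0.37, adjusted p = 0.0331) and *dpr12* (0.26, adjusted p = 0.0448). Of these, *CG13148*, *erm*, *Dop1R2* and *dpr12* had been below naïve flies at 10 min, whereas *Hr38* and *sr* rose beyond it.

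Lower at 15 min were *CR42765* (-1.01, adjusted p = 0.000969), *grh* (-0.87, adjusted p = 8.05e-08), *Eip93F* (-0.63, adjusted p = 0.000147), *alphagamma-element:CR32865* (-0.61, adjusted p = 0.000167), *Eip74EF* (-0.54, adjusted p = 0.00104), *Hsp27* (-0.44, adjusted p = 0.000634), *Syp* (-0.43, adjusted p = 0.0036), *Hsp26* (-0.35, adjusted p = 0.00583) and *toy* (-0.34, adjusted p = 0.0229). All of these had been above naïve flies at 10 min. Photoreceptor and fat body marker sums were higher at 15 min, and their part in these differences was not tested.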

How the results depend on the processing

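Among the genes that the naming rule picked for RNA, no call at 10 min changed sign under the alternatives run for them. Other genes and other times were not checked gene by gene. Scaling by library size alone turned the balance of calls at 15 min. It also turned the sign of the median of genes with a narrow site at 10 min (0.09 to -0.03). The share of narrow sites within 1 kb of a start site (56.9%) was 49.3% for a 500 bp window and 70.1% for 2 kb, 42.8% with 1 start site per gene, 52.8% for sites under 500 bp wide and 61.3% for sites above the median fold, and the intron share was 32.5% and 26.7% for the last 2. The GAGAG share (74.6%) was 71.4% and 88.3% for the same 2, 65.4% in the central 200 bp, 82.4% in the whole site and 77.5% on the summit. Scaling by library size alone gave lower calls of 102, 225, 481 and 200 genes with a narrow site at 0, 5, 10 and 15 min of rest and 143 higher at 15 min. A fit of only the 6 libraries compared gave 119 higher and 25 lower at 0 min, 278 and 56 at 5 min, and 144 and 46 at 15 min. Sites under 500 bp wide gave 154 lower at 10 min and 139 higher at 15 min.

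Leaving out 1 library at a time gave 150 to 240 higher and 34 to 99 lower genes at 0 min, 302 to 448 and 63 to 147 at 5 min, 588 to 707 and 170 to 238 at 10 min, 177 to 225 and 79 to 141 at 15 min, and 484 to 606 differences between 15 and 10 min (699 with all). The lowest values at 0 min came without replicate 3 of that group (150 and 34), the highest lower count without naïve replicate 2 (99), and 63 at 5 min without replicate 2 of that group. At 10 min, calls at single genes were lost without replicate 1 (*Eip75B*, *CrebA*, *luna* and *Dop1R2*, log2 fold changes 0.23, 0.33, 0.35 and -0.37), replicate 2 (*Eip75B* 0.23, *ftz-f1* 0.30, *CrebA* 0.33, *ey* 0.33, *luna* 0.35 and *Dop1R2* -0.36) or replicate 3 (*ftz-f1* 0.30, *dpr12* -0.26 and *Dop1R2* -0.29) of the 10-min group, or without naïve replicate 1 (*ftz-f1* 0.28, *dpr12* -0.25 and *Dop1R2* -0.20), 2 (*Eip75B* 0.23) or 3 (*Eip75B* 0.28 and *luna* 0.26). Calls were gained for *Hr38* without 10-min replicate 3 (0.53) and for *mamo* (0.39) and *Dop1R1* (-0.28) without naïve replicate 2.

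With the replicate number as a block, 706 genes were higher and 241 lower at 10 min, and 664 differed between 15 and 10 min. Same-numbered libraries did not deviate together (correlations from -0.10 to 0.05), so the numbers were not taken to pair samples. The cause of these movements was not tested beyond what each alternative itself changes. Site values have no replicates, and fold enrichment of weak sites is limited by the depth of libraries not analysed here.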
